A study of Homo sapiens with 6 samples.

Results

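Cytochrome P450 and conjugation enzyme genes were followed in HepG2 cells after knockdown of FTO. The 54 genes were a list of symbols, matched to the gene identifiers of the count tables. All 54 were found among the 60483 identifiers, and 29 of them are P450s. The other 25 are the P450 electron donor POR, 6 UDP-glucuronosyltransferases, 5 sulfotransferases, 10 glutathione transferases and 3 enzymes of bile acid synthesis and conjugation.

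P450s are heme enzymes that insert oxygen into drugs, fatty acids, sterols and bile acid precursors, with electrons that POR passes on from NADPH. Glucuronosyltransferases, sulfotransferases and glutathione transferases then attach a polar group, which makes the product easier to excrete. In liver, ligand-activated receptors such as AHR, PXR and CAR raise many of these genes, and hepatocyte factors such as HNF4A and CEBPA keep them on.

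RNA of 6 libraries was sequenced from HepG2, an established human hepatocellular carcinoma line that keeps many hepatocyte genes active. Of these, 3 came from cells transfected with a control siRNA and 3 from cells transfected with an siRNA against FTO, an enzyme that removes methyl groups from adenosines in RNA. All the cells were the same line in the same serum-containing RPMI medium. The siRNA sequence and dose and the time after transfection are not stated in the sources at hand, nor whether libraries were separate cultures. The p-values therefore measure the spread between these libraries, which may be technical.

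The libraries held 15713279 to 18390953 counts, so 3 counts in a library corresponded to 0.153 to 0.190 CPM, the counts scaled to library size. FTO itself went from 38.0 to 40.8 CPM in the controls to 11.2, 14.5 and 5.21 CPM in FTO siRNA 1, 2 and 3. All 12 hepatocyte markers were detected in every library, at a summed 23390 to 33729 CPM in controls and 16195 to 28752 CPM with FTO siRNA, and none was called. Of the 12, 11 had a log2 fold change below 0, with a median of -0.35 against 0.04 over all genes. APOB, the apolipoprotein of very low density lipoprotein, named after its values were seen, had 8179.6, 7419 and 5071 CPM in controls and 1405, 2381 and 4062 CPM with FTO siRNA, with the groups apart (-1.40, adjusted p = 0.065). FTO siRNA 3 stood apart from the other libraries: without it, 30.0% of genes were called instead of 11.4%. Markers of other cells were read beside the 7.53% of all genes that rose. Of 12 immune markers, 6 had enough counts to test and 4 rose, with overlapping sums of 51.6 to 102 CPM in controls and 78.0 to 111 CPM with FTO siRNA. All 6 bile duct markers were tested and 1 rose, with sums of 480 to 544 and 674 to 814 CPM. Of 9 cervical and kidney markers, 4 were tested and 2 rose, with sums of 6.03 to 8.33 and 17.4 to 19.0 CPM. Only 1 of 6 endothelial markers was tested, with a log2 fold change of -0.47 that was not called. Of 9 fibroblast markers, 6 were tested and 3 rose, with sums of 99.8 to 190 CPM in controls and 248 to 600 CPM with FTO siRNA. Of the 6 tested immune markers and the 6 tested fibroblast markers, 5 each had a log2 fold change above 0 and 1 below. PTPRC, the pan-leukocyte marker, averaged 0.0404 CPM in controls, below the level of 3 counts, and 1.17 CPM with FTO siRNA. DCN, THY1 and FAP of fibroblasts had no count in any control. The same held for MS4A1 and LST1 of immune cells, VWF, KDR and TEK of endothelial cells, and the cervical and kidney markers KRT5, KRT13, WT1 and NEFL. The part of these transcripts in the results below was not tested. In bulk samples, fewer cells of a type and less RNA per cell cannot be told apart.

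On this list, HepG2 expressed most of the genes other than P450s and only some of the P450s. Outside the list, 20 of 46 other conjugation enzymes and 7 of 27 other P450s had enough counts to test. A gene was counted as expressed with at least 1 CPM in each of the 3 control libraries. By that rule 34 of the 54 genes were expressed, 14 of the 29 P450s and 20 of the other 25. Another 17 were at trace level, with more than 3 counts in some library but below the rule, and 12 of these were P450s. The last 3 had at most 2 counts in any library: CYP7A1, which starts the main route of bile acid synthesis, CYP8B1, which sets the cholic acid share, and CYP24A1, which breaks down vitamin D. CYP7A1 had no count in any of the 6 libraries, which allows up to 3 counts, or 0.153 to 0.190 CPM.

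Some major drug P450s of adult liver, CYP3A4, CYP1A2 and CYP2C19, were close to silent. CYP3A4, the main drug oxidase of liver, had 1 count in each control and 2, 2 and 7 counts in FTO siRNA 1, 2 and 3. CYP1A2, which clears caffeine, had 1, 0 and 3 counts in the controls and 3, 0 and 8 with FTO siRNA. CYP2C19, which activates several prodrugs, had 4, 0 and 0 counts in the controls and 0, 1 and 1 with FTO siRNA. Counts this low allow no change to be read at this depth. Of the CYP2C19 exon bases 49.5% lie in other genes on either strand, so some of its reads may not have been counted.

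To compare levels between genes, CPM was divided by the length of the principal transcript in kb. On this scale glutathione transferases were highest: GSTP1, the pi class enzyme, had 1479 CPM per kb in controls, the membrane-bound MGST1 had 242, GSTO1 of the omega class had 146 and GSTK1 of the kappa class had 121. POR followed with 60.1 CPM per kb. The highest P450 was CYP1A1 at 39.3 CPM per kb, next CYP27A1 at 15.5, CYP2R1 at 6.27 and CYP4V2 at 6.12. The order depended in part on the transcript. Per kb of the longest one, GSTP1 (845) stayed first, and CYP1A1 (39.3) and CYP27A1 (13.8) stayed the highest P450s. MGST1 (110.3) fell below GSTO1 (135), GSTK1 (46.8) below POR (59.9), MGST2 (32.4) below CYP1A1 and MGST3 (10.2) below CYP27A1. CYP4V2 (1.45) fell below CYP2R1 (6.03), CYP39A1 (4.93) and CYP2J2 (4.44). GSTP1 alone made up 52.9, 56.9 and 56.7% of the CPM of all 54 genes in controls 1, 2 and 3 and 66.7, 64.6 and 45.9% after knockdown. The plot of control levels by gene shows a range of several orders of magnitude.

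**Figure D1:**
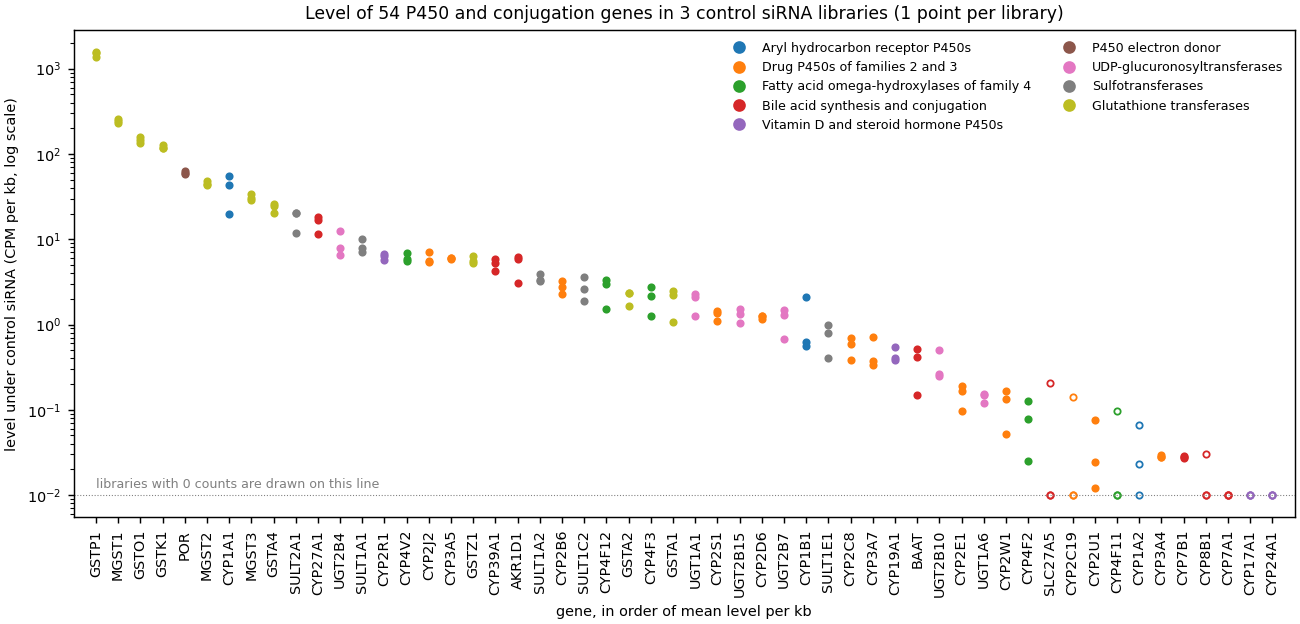
Level of each of the 54 genes in the 3 control siRNA libraries, in CPM per kb of principal transcript on a log scale, 1 point per library, in order of the mean and coloured by role. Open points mark genes with 0 counts in at least 1 control, and points on the dotted line are libraries with 0 counts. Glutathione transferases take the first places, with GSTP1 at a mean of 1479 CPM per kb, and P450s fill most of the right side.

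After FTO knockdown the share of these genes that was called was near that of all genes. Of the 54 genes, 40 had enough counts to test, the 34 expressed ones and 6 at trace level. In edgeR's quasi-likelihood test with Benjamini-Hochberg adjustment over all 15025 genes tested, 3 of the 40 rose (CYP2B6, CYP2E1 and CYP2S1), 1 fell (CYP39A1) and 36 did not pass an adjusted p of 0.05. Over all genes 11.4% were called, 7.53% higher and 3.83% lower, so 4 of 40 is near the background. A p above the threshold does not show that the other 36 genes were unchanged. All 4 are P450s, of which 17 were tested; none of the 23 other genes tested was called. The log2 fold changes of the 40 genes were split evenly, 20 above and 20 below 0, with a median of -0.01 against 0.04 over all genes. Control and FTO siRNA libraries were fully apart for 10 of the 40 genes, 6 higher and 4 lower; over all genes the share was 36.5%, with 19.2% higher and 17.4% lower.

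**Figure D2:**
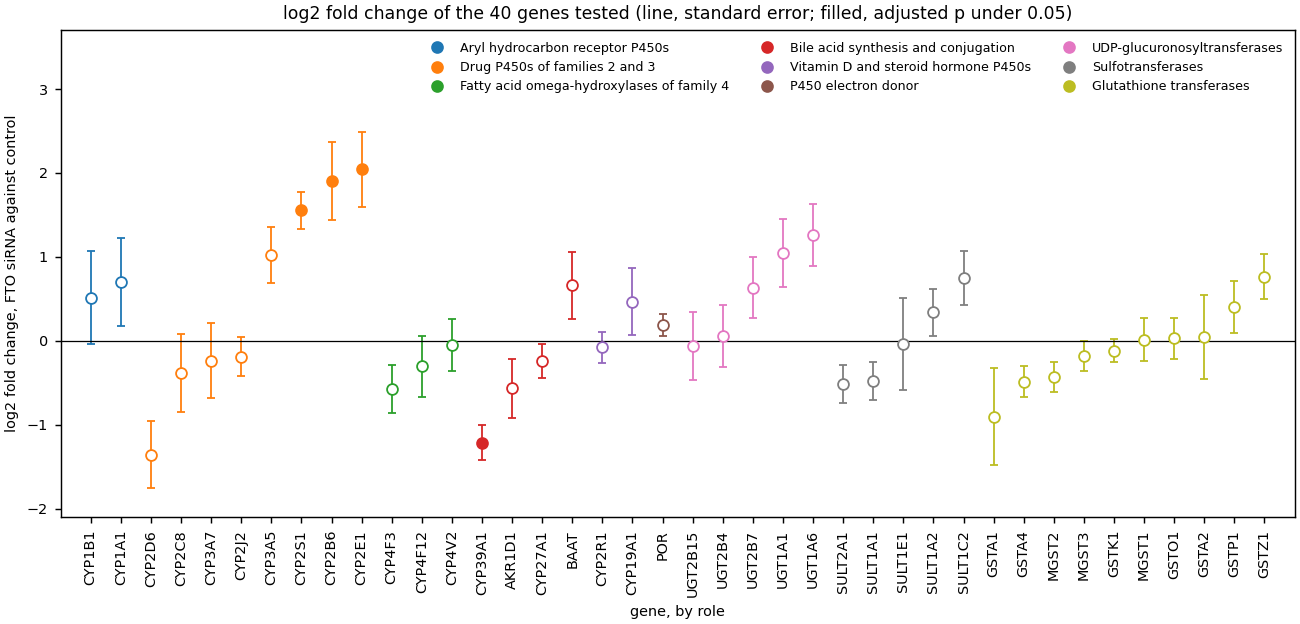
Log2 fold change, FTO siRNA against control siRNA, of the 40 genes tested, ordered by role and then by size; lines are standard errors and filled points have an adjusted p under 0.05 in edgeR's quasi-likelihood test. The 4 filled points are CYP2S1 at 1.56, CYP2B6 at 1.91, CYP2E1 at 2.04 and CYP39A1 at -1.21.

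The starts of the 4 called genes, and of GSTP1 as the most abundant one, are shown because the results turn on these genes. The 250 bases before the transcription start are from RefSeq (GRCh38.p14), 5′ to 3′ on the gene's own strand. Capitals mark matches, on either strand, to the letters TATAAA (core promoter element, called the TATA box), CCAAT (the element that NF-Y binds), GGGCGG (GC box), GCGTG (core of the xenobiotic response element that AHR binds), TTGCNNAA (bound by C/EBP factors), CAAAGTCCA (a repeat that HNF4 binds), TGANTCA (AP-1 site) and TGACNNNGC (core of the antioxidant response element), of which the last pair can overlap.
CYP2B6 (chr19:40991032-40991281, forward strand): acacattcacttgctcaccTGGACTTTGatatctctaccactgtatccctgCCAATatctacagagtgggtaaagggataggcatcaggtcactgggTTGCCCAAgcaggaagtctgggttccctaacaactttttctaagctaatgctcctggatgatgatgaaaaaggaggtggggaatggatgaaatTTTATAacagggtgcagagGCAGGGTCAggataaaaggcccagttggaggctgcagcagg
CYP2E1 (chr10:133527113-133527362, forward strand): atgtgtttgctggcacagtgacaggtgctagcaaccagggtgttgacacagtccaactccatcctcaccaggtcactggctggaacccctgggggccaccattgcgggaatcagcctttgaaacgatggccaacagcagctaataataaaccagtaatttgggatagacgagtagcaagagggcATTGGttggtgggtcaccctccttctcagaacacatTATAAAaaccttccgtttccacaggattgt
CYP2S1 (chr19:41192969-41193218, forward strand): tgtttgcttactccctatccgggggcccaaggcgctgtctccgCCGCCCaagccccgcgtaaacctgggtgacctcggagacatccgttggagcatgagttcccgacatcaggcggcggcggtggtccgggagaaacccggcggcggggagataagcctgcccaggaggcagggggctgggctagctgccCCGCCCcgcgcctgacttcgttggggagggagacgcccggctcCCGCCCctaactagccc
CYP39A1 (chr6:46652819-46653068, reverse strand): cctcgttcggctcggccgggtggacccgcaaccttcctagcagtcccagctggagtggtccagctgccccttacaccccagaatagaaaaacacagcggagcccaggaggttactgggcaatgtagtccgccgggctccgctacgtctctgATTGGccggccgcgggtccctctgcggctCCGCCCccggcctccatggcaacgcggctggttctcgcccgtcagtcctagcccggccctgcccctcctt
GSTP1 (chr11:67583562-67583811, forward strand): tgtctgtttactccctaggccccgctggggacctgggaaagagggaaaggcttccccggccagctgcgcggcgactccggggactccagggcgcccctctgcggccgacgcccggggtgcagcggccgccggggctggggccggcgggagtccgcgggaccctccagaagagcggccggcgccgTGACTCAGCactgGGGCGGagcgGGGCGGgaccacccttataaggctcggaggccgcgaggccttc
The CYP2B6 window held no CpG dinucleotide and the CYP2E1 window 4, while CYP2S1 had 23, CYP39A1 had 21 and GSTP1 had 28. The median over 35116 promoters of this length was 11. CYP2B6 matched the TATA box letters (10.7% of all promoters) on the opposite strand, 60 to 55 bases before the start. It also matched the CCAAT box (32%), the C/EBP letters (9.05%), the HNF4 letters (0.325%) and the antioxidant response core (10.9%). The CYP2E1 window matched the TATA box 30 to 25 bases before the start and the CCAAT box. CYP2S1 matched the GC box (42.6%) at 3 places and nothing else searched, CYP39A1 matched the CCAAT box and the GC box, and GSTP1 matched the GC box at 2 places and an AP-1 site (6.57%) that lies within an antioxidant response core. GCGTG, found in 32.2% of all promoters, was in none of these 5 windows. A match is a description of letters and not a measured binding site.

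CpG content was also compared between the expressed genes of the list and the others. A promoter was in the table for 42 of the 54 genes, and the most CpG-rich promoter of each was used. The median was 10.5 CpGs over the 26 expressed genes and 2 over the 16 genes at trace level or not detected. Their ranges nearly coincided, at 0 to 29 and 0 to 25 CpGs. Of the genes with at least 20 CPM per kb in controls, 7 had a promoter listed, with a median of 15 and none below 10. That depends on the level and the promoter chosen. SULT2A1, the next gene at 17.4 CPM per kb, had 4 CpGs, and the MGST1 promoters had 3, 12 and 19. All 7 but CYP1A1 are glutathione transferases, so level and family cannot be told apart. POR and MGST2 also passed that level but had no promoter listed. These are descriptions, with no test.

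P450s of the aryl hydrocarbon receptor, which oxidise polycyclic aromatic compounds and oestrogens, were not called. CYP1A1 had 116, 52.3 and 148 CPM under control siRNA 1, 2 and 3, and 103, 89.9 and 321 CPM with FTO siRNA 1, 2 and 3. FTO siRNA 3 was above all the other libraries and FTO siRNA 1 and 2 lay among the controls, so the groups overlapped. The log2 fold change was 0.70 ± 0.52 (adjusted p = 0.42, edgeR quasi-likelihood test), and -0.15 without FTO siRNA 3. AHR, the receptor itself, had 131, 167 and 149 CPM in controls and 109, 179 and 337 CPM with FTO siRNA, so FTO siRNA 3 was the highest library there too (log2 fold change 0.49, adjusted p = 0.406; -0.07 without that library), and 33.1% of its words lie in an overlapping gene model. None of the 5 other AHR targets tested was called, and their median log2 fold change was 0.46. CYP1B1 went the other way by library, with 2.98, 3.29 and 11.2 CPM in controls and 9.42, 11.8 and 3.93 CPM with FTO siRNA. Its control 3 and FTO siRNA 3 traded places with the rest of their groups (log2 fold change 0.52 ± 0.56, adjusted p = 0.59).

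Of the 12 drug P450s of families 2 and 3, 8 were tested and 3 rose, beside 7.53% of all genes. CYP2S1, an extrahepatic P450 with retinoid and eicosanoid substrates, had 4.05, 3.05 and 3.80 CPM in the controls and 11.8, 9.02 and 11.3 CPM with FTO siRNA. Every FTO siRNA library was above every control, and the 3 lay close together. Its log2 fold change was 1.56 ± 0.22 (adjusted p = 0.0053, edgeR quasi-likelihood test) and it was called higher under all 17 alternatives, with adjusted p up to 0.0397. None of its 50-base words occurs in another gene, and its exons overlap no other gene.

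CYP2B6, the bupropion and efavirenz hydroxylase that CAR and PXR induce, had 10.1, 8.65 and 7.003 CPM in controls and 21.6, 15.6 and 59.3 CPM with FTO siRNA. All FTO siRNA libraries were above all controls, but FTO siRNA 3 was 3.19 times the mean of the other two. The log2 fold change was 1.91 ± 0.47 (adjusted p = 0.0347, edgeR quasi-likelihood test) and 1.08 without FTO siRNA 3 (adjusted p = 0.00457). The call was lost without control 1 (adjusted p = 0.113), without control 2 (0.124), without control 3 (0.12) and with limma-voom (0.0641). The pseudogene CYP2B7P, which shares 9.89% of the CYP2B6 words, had at most 0.434 CPM. CAR itself (NR1I3) averaged 1.71 CPM in controls and 1.62 with FTO siRNA, and PXR (NR1I2) 5.86 and 7.004 CPM; neither was called (adjusted p = 0.908 and 0.584).

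CYP2E1, which oxidises ethanol and small solvents, was at trace level, with 5, 3 and 6 counts in the controls and 21, 25 and 16 counts with FTO siRNA. These are 0.317, 0.183 and 0.362 CPM against 1.30, 1.54 and 0.818 CPM, with the groups apart. The log2 fold change was 2.04 ± 0.45 (adjusted p = 0.025, edgeR quasi-likelihood test). The call rests on few counts: it was lost without control 1 (adjusted p = 0.112), control 2 (0.123), control 3 (0.0744), FTO siRNA 1 (0.0635) or FTO siRNA 2 (0.0629). Its exons overlap the antisense gene SYCE1 over 23.9% of their bases, and SYCE1 had no count in any library.

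The next largest changes among drug P450s were not called, and CYP2D6 is named after its values were seen. CYP3A5, the CYP3A gene with the highest CPM, had 10.4, 10.05 and 10.3 CPM in controls and 18.2, 11.7 and 32.5 CPM with FTO siRNA. The controls were nearly equal and all FTO siRNA libraries higher, FTO siRNA 3 most of all. Its log2 fold change was 1.02 ± 0.33 (adjusted p = 0.0851), and 0.51 without FTO siRNA 3 (adjusted p = 0.0675); DESeq2 called it (0.0314), as did the fit without FTO siRNA 2 (0.0363). The 4 CYP3A genes summed gave 0.96 ± 0.33 (adjusted p = 0.102). CYP2D6, which clears codeine and many antidepressants, had 2.09, 1.95 and 2.11 CPM in controls and 0.496, 0.494 and 1.33 CPM with FTO siRNA. All FTO siRNA libraries were below all controls, FTO siRNA 3 least so. The log2 fold change was -1.35 ± 0.40 (adjusted p = 0.0643), and -2.06 (0.00333) without FTO siRNA 3. CYP2D6 shares 33% of its words with CYP2D7, so its reads may be split between the pair. CYP2D7 had 1.20, 0.975 and 0.966 CPM in controls and 0.620, 0.494 and 1.18 CPM with FTO siRNA, so FTO siRNA 3 lay among the controls there. CYP2J2, an epoxygenase of arachidonic acid, had 13.3, 10.2 and 10.5 CPM in controls and 11.8, 10.9 and 7.15 CPM with FTO siRNA, with overlapping groups (-0.19 ± 0.24, adjusted p = 0.651). CYP2C8 and CYP3A7, both at trace level, had log2 fold changes of -0.38 and -0.24 with adjusted p of 0.64 and 0.776. Of the CYP3A7 exon bases 41.7% lie in CYP3A7-CYP3A51P on the same strand, so some of its reads may not have been counted. That overlapping gene was not part of the CYP3A sum. CYP2U1 and CYP2W1 were not tested; CYP2W1 had 6, 5 and 2 counts in controls and 4, 1 and 21 with FTO siRNA, the last in FTO siRNA 3.

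**Figure D3:**
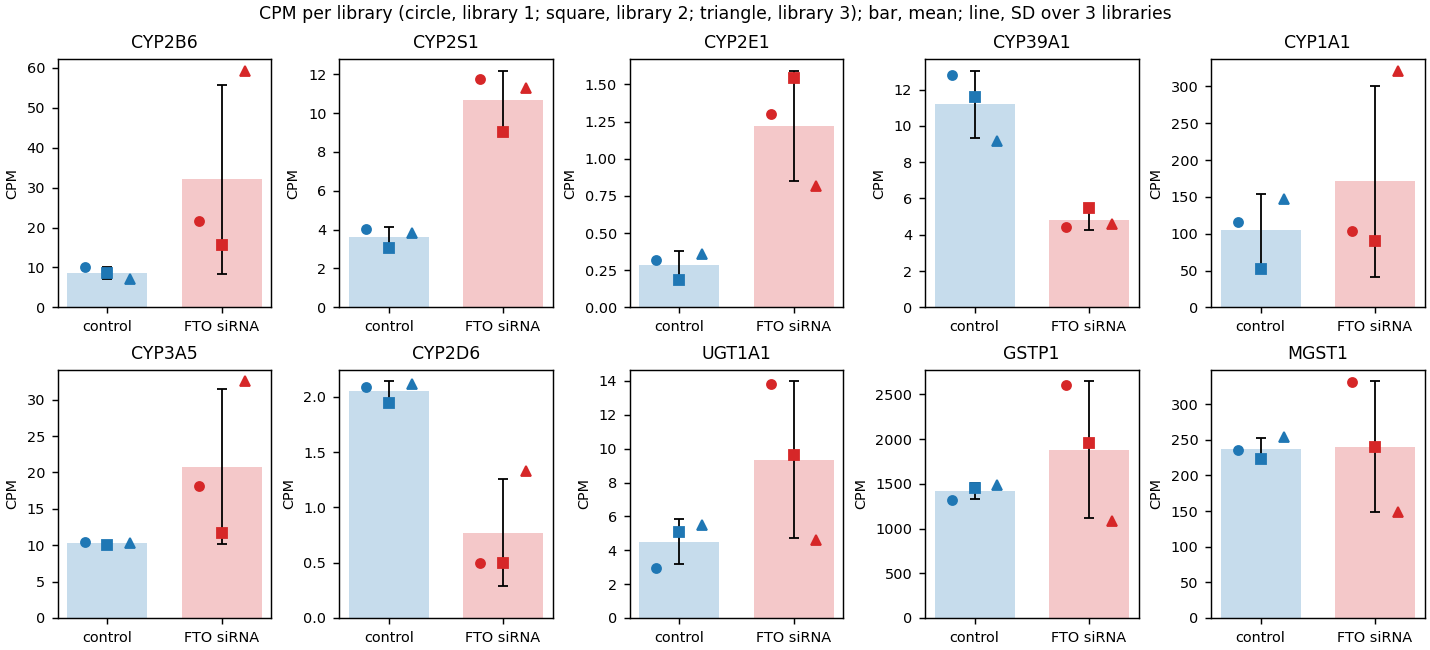
CPM of 10 genes in each library (circle, library 1; square, library 2; triangle, library 3), with bars at the group mean and lines for the SD over 3 libraries; each panel has its own axis from 0. CYP2S1 and CYP39A1 have tight groups that stand apart, while FTO siRNA 3 is the highest library for CYP1A1, CYP2B6 and CYP3A5, at 321, 59.3 and 32.5 CPM, and the lowest FTO siRNA library for UGT1A1, GSTP1 and MGST1.

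Fatty acid omega-hydroxylases of family 4 showed no called change in the 3 members tested. CYP4F3, which inactivates leukotriene B4, had 10.96, 13.8 and 6.34 CPM in controls and 7.13, 6.42 and 7.31 CPM with FTO siRNA. The controls were scattered and control 3 was the lowest library (-0.57 ± 0.28, adjusted p = 0.228). CYP4F12 had 6.84, 6.03 and 3.08 CPM in controls and 3.10, 3.64 and 6.08 CPM with FTO siRNA (-0.30 ± 0.36, adjusted p = 0.633). CYP4V2, the Bietti dystrophy gene, had 11.9, 14.1 and 11.5 CPM in controls and 9.30, 8.15 and 18.7 CPM with FTO siRNA. FTO siRNA 1 and 2 were below all controls and FTO siRNA 3 above all (-0.05 ± 0.31, adjusted p = 0.939), and without FTO siRNA 3 it fell by 0.55 (adjusted p = 0.0376). CYP4F2 and CYP4F11 had 0 to 5 counts per library and were not tested.

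Bile acid genes were expressed in part: CYP27A1, CYP39A1 and AKR1D1 were expressed, CYP7B1, BAAT and SLC27A5 were at trace level, and CYP7A1 and CYP8B1 were not detected. Of the 8 genes of synthesis and conjugation, 4 were tested and 1 fell, beside 3.83% of all genes. CYP39A1, which hydroxylates 24-hydroxycholesterol on the way to bile acids, had 12.8, 11.6 and 9.18 CPM in the controls and 4.40, 5.50 and 4.60 CPM with FTO siRNA. The lowest control was well above the highest FTO siRNA library, and each group was tight. The gene fell, with a log2 fold change of -1.21 ± 0.21 (adjusted p = 0.0115 in edgeR's quasi-likelihood test). The call was lost without control 1 (adjusted p = 0.0702) and without control 2 (0.0612), with log2 fold changes of -1.13 and -1.19. It shares no words with other genes.

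CYP27A1, the mitochondrial sterol 27-hydroxylase that opens the acidic route, had 38.1, 41.8 and 26.6 CPM in controls and 34.4, 26.1 and 29.5 CPM with FTO siRNA. The groups overlapped (-0.24 ± 0.20, adjusted p = 0.476). AKR1D1, the steroid 5-beta-reductase, had 13.7, 14.5 and 7.18 CPM in controls and 7.62, 5.00 and 11.1 CPM with FTO siRNA. Control 3 lay with the FTO siRNA libraries (-0.57 ± 0.35, adjusted p = 0.328), and without FTO siRNA 3 the gene fell by 0.93 (adjusted p = 0.0465). BAAT, which joins bile acids to glycine or taurine, was at trace level with 0.507, 1.40 and 1.75 CPM in controls and 2.17, 1.67 and 1.99 CPM with FTO siRNA (0.66 ± 0.40, adjusted p = 0.321). SLC27A5, which activates bile acids for BAAT, had 0, 8 and 0 counts in controls and 7, 3 and 7 with FTO siRNA. CYP7B1, the oxysterol hydroxylase, had 1 count in each control and 3, 2 and 4 with FTO siRNA, too few to test.

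Of 14 other bile acid synthesis genes, 11 were tested, 1 rose and 2 fell, with a median of -0.18. The shares over all genes were 7.53% higher and 3.83% lower. The peroxisomal genes HSD17B4 and ABCD3, which shorten and import the side chain substrates, had mean levels of 205 and 148 CPM in controls and of 141 and 87.8 CPM with FTO siRNA (log2 fold change -0.54 ± 0.14 and -0.75 ± 0.19, adjusted p = 0.0421 and 0.0408). Each of these calls was lost without any 1 of the libraries other than FTO siRNA 3, with adjusted p up to 0.198 and 0.158, and with length and GC trends removed (0.238 and 0.151); HSD17B4 also missed the threshold with no filter (0.0553). AKR1C4, a ketosteroid reductase, rose from 0.310 to 1.19 CPM (1.93 ± 0.44, adjusted p = 0.0284) and lost its call without control 1, 2 or 3 or FTO siRNA 1 (adjusted p up to 0.135) and in DESeq2 (0.0503). Of its words 11.9% occur in other genes.

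P450s of vitamin D and steroid hormones were not called where they could be tested. CYP2R1, the 25-hydroxylase of vitamin D, had 15.0, 12.9 and 14.2 CPM in controls and 15.4, 10.8 and 13.6 CPM with FTO siRNA (-0.08 ± 0.19, adjusted p = 0.827). CYP19A1, the aromatase, had 1.77, 2.44 and 1.69 CPM in controls and 1.86, 1.79 and 4.39 CPM with FTO siRNA. FTO siRNA 3 alone was high (0.47 ± 0.40, adjusted p = 0.491). CYP17A1, of androgen synthesis, had no count in any control and 3, 1 and 8 counts with FTO siRNA; 28.3% of its words lie in the overlapping gene WBP1L, which had 38.0 to 38.9 CPM in controls and 45.1 to 55.3 CPM with FTO siRNA.

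The electron donor POR had 160.2, 146 and 149 CPM in controls and 181, 159.9 and 176 CPM with FTO siRNA, a log2 fold change of 0.18 ± 0.13 (adjusted p = 0.402). FTO siRNA 2 lay just below control 1. None of the 7 other P450 electron donors tested was called, cytochrome b5 (CYB5A) and the ferredoxin FDX1 among them, with a median of -0.09. Of the 12 genes of heme synthesis and breakdown, HMOX1, which degrades heme, rose from 50.2 to 101 CPM (1.00 ± 0.20, adjusted p = 0.0157), and the other 11 did not pass. Over all genes 7.53% rose. The HMOX1 call was lost without control 1, 2 or 3 (adjusted p up to 0.0798).

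Of 6 UDP-glucuronosyltransferases, 5 were tested and none was called. UGT1A1, the bilirubin transferase, had 2.98, 5.06 and 5.49 CPM in controls and 13.8, 9.64 and 4.60 CPM with FTO siRNA. FTO siRNA 1 and 2 were above all controls and FTO siRNA 3 among them (1.04 ± 0.41, adjusted p = 0.136), and without FTO siRNA 3 the gene rose by 1.34 (adjusted p = 0.00553). UGT1A6, of planar phenols, is named after its values were seen, with 0.380, 0.366 and 0.302 CPM in controls and 0.806, 0.865 and 0.869 CPM with FTO siRNA. The groups were apart at 5 to 17 counts per library (1.26 ± 0.37, adjusted p = 0.0639). UGT1A genes share their last exons, and 49.9% of the exon bases of UGT1A1 and 64.4% of those of UGT1A6 lie in other genes on either strand, so the 9 UGT1A genes were also summed. The sum was 3.99, 5.91 and 6.34 CPM in controls and 15.9, 10.99 and 6.59 CPM with FTO siRNA, with the groups apart (1.03 ± 0.34, adjusted p = 0.0839).

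UGT2B4, a bile acid glucuronosyltransferase and the highest UGT member per kb at 8.97 CPM per kb, had 26.3, 16.5 and 13.8 CPM in controls and 16.4, 11.4 and 30.9 CPM with FTO siRNA. The groups spanned nearly the same range (0.06 ± 0.37, adjusted p = 0.937). UGT2B15, of androgens, had 2.15, 2.74 and 3.14 CPM in controls and 2.48, 1.17 and 3.93 CPM with FTO siRNA (-0.06 ± 0.41, adjusted p = 0.936), and 27.5% of its words are shared with UGT2B17. UGT2B7, of morphine and bile acids, had a log2 fold change of 0.63 ± 0.36 (adjusted p = 0.294). UGT2B10 had 6 to 18 counts per library and was not tested.

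None of the 5 sulfotransferases was called. SULT2A1, which sulfates DHEA and bile acids, had 40.4, 40.3 and 23.3 CPM in controls and 26.6, 23.4 and 22.9 CPM with FTO siRNA. Control 3 lay among the FTO siRNA libraries (-0.51 ± 0.22, adjusted p = 0.179). SULT1A1, the main phenol sulfotransferase, had 18.9, 14.8 and 13.2 CPM in controls and 10.7, 9.08 and 13.8 CPM with FTO siRNA. FTO siRNA 3 lay between controls 2 and 3 (-0.48 ± 0.22, adjusted p = 0.202), and without it the gene fell by 0.69 (adjusted p = 0.024). Its near copy SULT1A2 had 5.13, 4.33 and 4.41 CPM in controls and 6.26, 3.71 and 7.51 CPM with FTO siRNA (0.34 ± 0.28, adjusted p = 0.475). SULT1A2 shares 20.5% of its words with SULT1A1, and the 4 SULT1A genes summed gave -0.25 ± 0.22 (adjusted p = 0.509). SULT1C2 had a log2 fold change of 0.75 ± 0.32 (adjusted p = 0.167) and the oestrogen sulfotransferase SULT1E1, at trace level, -0.04 ± 0.55 (adjusted p = 0.974).

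All 10 glutathione transferases were expressed and none was called. GSTP1 had 1321, 1453 and 1490.2 CPM in controls and 2607, 1952 and 1088 CPM with FTO siRNA. FTO siRNA 1 and 2 were above every control and FTO siRNA 3 below every control (0.41 ± 0.31, adjusted p = 0.429), and without FTO siRNA 3 it rose by 0.65 (adjusted p = 0.00949). MGST1, which protects membranes from peroxides, had 236, 223 and 253 CPM in controls and 332, 240.2 and 149 CPM with FTO siRNA (0.02 ± 0.26, adjusted p = 0.976). GSTO1, a thiol transferase, had 131, 154 and 141 CPM in controls and 183, 160.3 and 91.5 CPM with FTO siRNA (0.03 ± 0.24, adjusted p = 0.95). In GSTP1, GSTO1 and MGST1 alike FTO siRNA 1 was the highest and FTO siRNA 3 the lowest of the 6 libraries.

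Of the other transferases, GSTA4, MGST2 and GSTZ1 are named after their values were seen because their groups did not overlap. GSTA4, which clears the lipid peroxidation product 4-hydroxynonenal, had 34.3, 33.0 and 27.1 CPM in controls and 23.3, 18.2 and 25.9 CPM with FTO siRNA (-0.49 ± 0.18, adjusted p = 0.127; -0.63 and 0.0166 without FTO siRNA 3). MGST2, which can make leukotriene C4, had 61.7, 56.4 and 54.8 CPM in controls and 53.9, 39.3 and 35.0 CPM with FTO siRNA (-0.43 ± 0.18, adjusted p = 0.166). It was called lower without FTO siRNA 1 (adjusted p = 0.0427) and with length and GC trends removed (0.0373), and 11.9% of its words lie in the overlapping gene MAML3. GSTZ1, of tyrosine breakdown, had 7.03, 8.41 and 7.49 CPM in controls and 10.5, 10.01 and 18.4 CPM with FTO siRNA (0.77 ± 0.27, adjusted p = 0.103; 0.39 and 0.101 without FTO siRNA 3). GSTA1, GSTA2, GSTK1 and MGST3 had log2 fold changes of -0.90, 0.05, -0.12 and -0.18 with adjusted p from 0.346 to 0.965. The 5 alpha class genes summed gave -0.46 ± 0.22 (adjusted p = 0.206), since GSTA1 and GSTA2 share words.

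FTO siRNA 3 often lay at one end of the range, in these genes as over all genes. It was the highest of the 6 libraries for 14 of the 40 genes tested (35%) and the lowest for 7 (17.5%). Over all genes these shares were 29.9% and 28.1%. FTO siRNA 1 was the highest library for 26.1% of all genes and the lowest for 22.6%, and for 8 and 1 of the 40. FTO siRNA 2 was the lowest library for 16 of the 40, against 9.80% of all genes. Summed CPM of the 29 P450s was 195 to 268 in controls, 256 and 215 with FTO siRNA 1 and 2, and 527 with FTO siRNA 3. Without CYP1A1 the P450 sum was 121 to 145 CPM in controls, 153 and 126 in FTO siRNA 1 and 2 and 206 in FTO siRNA 3. The glutathione transferases summed to 1949 to 2130.0 CPM in controls and to 3373, 2564 and 1544 CPM in FTO siRNA 1, 2 and 3. Without GSTP1 that sum was 628 to 647 CPM in controls and 765, 613 and 456 CPM with FTO siRNA, with FTO siRNA 2 and 3 below the controls. FTO siRNA 3 also had the lowest FTO level; the part of this, and of its place apart from the other libraries, in these results was not tested.

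Without FTO siRNA 3, 11 of 40 genes were called where 30.0% of all genes were (15.9% higher and 14.1% lower), which is again near the background. CYP2B6, CYP2E1, CYP2S1, UGT1A1 and GSTP1 rose, and CYP2D6, CYP4V2, CYP39A1, AKR1D1, SULT1A1 and GSTA4 fell. The 4 genes called with all libraries were among them, in the same direction. The heat map of levels by library shows both patterns.

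**Figure D4:**
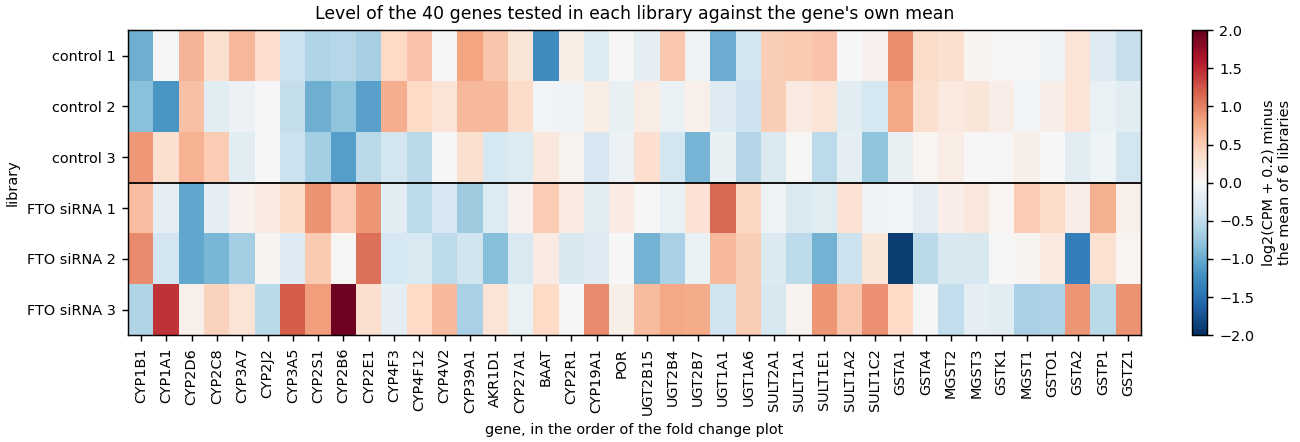
Level of the 40 genes tested in each of the 6 libraries, as log2(CPM + 0.2) minus the gene's mean over the libraries; red is above and blue below that mean, and the line parts control from FTO siRNA. FTO siRNA 3 holds the deepest reds at CYP1A1, CYP3A5 and CYP2B6, while CYP2S1 and CYP39A1 split at the line between the groups.

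Of 18 regulators of these genes, 17 were tested, 3 fell and none rose, with a median of -0.08. Over all genes 3.83% fell and 7.53% rose. CEBPA, a hepatocyte transcription factor, had 143, 136 and 97.8 CPM in controls and 74.3, 71.8 and 57.2 CPM with FTO siRNA, with the groups apart (-0.89 ± 0.19, adjusted p = 0.0204). ONECUT1, or HNF6, went from 43.2 to 16.8 CPM (-1.36 ± 0.28, adjusted p = 0.0198) and RXRA, the partner of PXR, CAR and FXR, from 106 to 69.5 CPM (-0.61 ± 0.16, adjusted p = 0.0461). The calls were lost for CEBPA without control 1 or 2 (adjusted p up to 0.101), for ONECUT1 without control 1, control 2 or FTO siRNA 2 (up to 0.0867) and for RXRA without any 1 library other than FTO siRNA 3 (up to 0.195) and, at 0.0501 to 0.0578, with upper quartile or no factors, no filter, limma-voom or the older quasi-likelihood method. Of the exon bases of CEBPA 43.4% overlap genes on the other strand. HNF4A had 360 to 378 CPM in controls and 300 to 328 CPM with FTO siRNA (-0.23 ± 0.14, adjusted p = 0.306).

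Other enzymes that act on drugs were read beside the 11.4% of all genes called (7.53% higher and 3.83% lower). Of 36 other oxidases, reductases and hydrolases, 27 were tested, 5 rose and 3 fell, with a median of 0.05. CES1, the liver carboxylesterase that hydrolyses ester drugs, rose from 2.73 to 12.2 CPM (2.16 ± 0.29, adjusted p = 0.00471). AOX1, an aldehyde oxidase, rose from 5.70 to 14.6 CPM (1.36 ± 0.28, adjusted p = 0.0192) and the aldo-keto reductase AKR1B10 from 6.93 to 17.0 CPM (1.29 ± 0.28, adjusted p = 0.0219; 17.7% of its words occur in other genes). ADH6, an alcohol dehydrogenase, fell from 14.7 to 4.95 CPM (-1.57 ± 0.26, adjusted p = 0.0102). CES1 was called under all alternatives, but shares 31.1% of its words with the pseudogene CES1P1. ADH6 lost its call without control 1 or 2 (adjusted p up to 0.0537). AOX1 lost its call without control 1, 2 or 3 and with the replicate number as a block (up to 0.0741). AKR1B10 lost its call without control 1, 2 or 3 or FTO siRNA 1 (up to 0.101).

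Of 47 other conjugation enzymes, 46 were in the files, 20 were tested, 2 rose and none fell, with a median of 0.21. Over all genes 7.53% rose and 3.83% fell. NNMT, which methylates nicotinamide, had 0.634, 1.52 and 1.69 CPM in controls and 17.4, 9.45 and 11.8 CPM with FTO siRNA, 2 groups far apart (3.31 ± 0.38, adjusted p = 0.00282), and it was called higher under all alternatives. PTGES, a glutathione-dependent prostaglandin E synthase, rose from 0.284 to 1.69 CPM (2.52 ± 0.56, adjusted p = 0.0259) and lost its call without control 1 or 3 or FTO siRNA 1 or 2 (adjusted p up to 0.113). Among 27 other P450s, 7 were tested and 1 fell: CYP51A1, of cholesterol synthesis, from 6.51 to 3.01 CPM (adjusted p = 0.0217), a call lost without control 1, 2 or 3 or FTO siRNA 1 (up to 0.109); 83.2% of its exon bases lie in other genes.

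Calls among cofactor and NRF2 genes were read beside the 7.53% of all genes that rose and the 3.83% that fell. Of the 12 genes that supply cofactors for conjugation, 1 fell. SLC35D1, which carries UDP-glucuronic acid into the endoplasmic reticulum, went from 121 to 79.7 CPM (-0.61 ± 0.16, adjusted p = 0.0427). It lost the call without any 1 library other than FTO siRNA 3 (adjusted p up to 0.197), with length and GC trends removed (0.094), and at 0.0513 to 0.056 with upper quartile or no factors, no filter or limma-voom. Of the 20 NRF2 targets outside conjugation, 3 rose and none fell, with a median of 0.30: HMOX1, AKR1B10 and the ferritin chain FTH1, from 1424 to 2619 CPM (0.88 ± 0.23, adjusted p = 0.0425; lost without any 1 library other than FTO siRNA 3, up to 0.187, and with length and GC trends removed, 0.0538). Of the exon bases of FTH1 62.4% overlap BEST1 on the other strand.

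Of 22 genes of bile acid and drug transport and its hormone signals, 17 were tested, 1 rose and 2 fell, with a median of 0.04. The shares over all genes were 7.53% higher and 3.83% lower. KLB, the co-receptor with which the hormone FGF19 represses bile acid synthesis, had 165, 178 and 161 CPM in controls and 80.4, 90.1 and 75.1 CPM with FTO siRNA, with the groups apart (-1.04 ± 0.14, adjusted p = 0.00426). It was called under all alternatives. FGF19 itself had 12.4, 12.1 and 11.4 CPM in controls and 29.1, 22.05 and 72.3 CPM with FTO siRNA, highest in FTO siRNA 3 (1.78 ± 0.41, adjusted p = 0.0276; 1.07 without that library), and lost its call without control 1, 2 or 3 (up to 0.112) and with length and GC trends removed (0.0582). SLC47A1, a drug efflux transporter, went from 20.9 to 10.4 CPM (-1.01 ± 0.20, adjusted p = 0.0181; lost without control 1 or 2, up to 0.0946).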

How the data were processed

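Per the labels, total RNA of HepG2 was extracted with Trizol and sequenced by standard Illumina methods. The authors deposited raw counts per Ensembl gene, 1 table per library. Per the submitters' processing notes, the tools included TopHat2 2.0.11, TopHat and HTSeq and the builds hg19 and GRCh37, with no role given. Counting settings and strand were not stated there, so genes with copies or overlapping exons are uncertain, as said beside some of them. GENCODE 29 (GRCh38) gave symbols, lengths, exon overlap and shared 50-base words for 56753 of 60483 identifiers, and no coordinates of the files are printed.

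Counts were tested in edgeR 4.0.16 (R 4.3.3) with filterByExpr, TMM factors, glmQLFit (legacy=FALSE) and glmQLFTest, two-sided, with Benjamini-Hochberg adjustment over 15025 genes and a threshold of 0.05; no set test was run. CPM values are TMM-scaled, and ± is a standard error. The steps were tested on simulated data with 200 changed genes. Of 113 calls there, 102 were changed genes in the right direction and 11 were unchanged genes. Of the changes, 10.4% were called at 1.5-fold, 52.2% at 2-fold and 90.9% at 4-fold. Each pair of libraries differed by more than sampling noise (chi-square over degrees of freedom of 5.78 or more). The genes, lists and tests were chosen with earlier results of these data known. Values per library were given for genes past the threshold, for roles with up to 3 tested genes and for the 3 highest per kb of other roles, and of other lists for FTO and up to 4 called genes with the smallest p; AHR, NR1I2, NR1I3 and HNF4A were added. Alternatives were RLE, upper quartile and no factors; no filter and 1 CPM in 3 libraries; DESeq2 1.42.0; limma-voom (limma 3.58.1); older quasi-likelihood; the replicate block; length and GC trends removed (lowess span 0.3); each library left out; and summed families. Promoter letters were searched and figures drawn in Python 3.11.15.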

Additional observations from a re-analysis of the deposited data

How the results depend on the processing

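The 4 calls kept their direction under every alternative run, and CYP2S1 and CYP39A1 were the ones kept when the replicate number was used as a block. Pairing by number was not seen in this check: deviations of same-numbered libraries correlated at -0.14, -0.06 and -0.25, and no library correlated best with its own number. With 3 libraries per group, the check cannot exclude that same-numbered libraries were handled together. With the replicate block 1041 genes and 2 of the listed genes were called, and with length and GC trends removed as well 860 and 2. Of the named genes outside the list, ABCD3, AKR1C4, AOX1, FTH1, HSD17B4, RXRA and SLC35D1 also lost their calls with the block. AKR1B10, CYP51A1 and FGF19 lost theirs with the block and trends removed together. CYP2E1 was not tested with the filter of at least 1 CPM in 3 libraries. With 1 library left out, 330 to 4582 genes and 1 to 11 of the listed genes were called; the cause was not tested.

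Among the genes given with values per library, signs of the log2 fold change differed between settings only for genes that were not called with all libraries. MGST1 was at -0.0099 with RLE factors, -0.032 without a filter, -0.025 in DESeq2, -0.052 in limma-voom, -0.054 with the block, -0.020 with trends removed and -0.083 with both. GSTO1 was at -0.017 without a filter, -0.010 in DESeq2, -0.023 in limma-voom, -0.025 with the block, -0.10 with trends removed and -0.14 with both. CYP4V2 was at 0.016 with upper quartile factors, 0.15 with trends removed and 0.098 with both. POR was at -0.074 with trends removed and -0.078 with both, UGT2B4 at -0.022 with the block and -0.017 with both, and GSTP1 at -0.0042 with both. SULT1A2 was at -0.25 when the family was summed. With 1 library left out the log2 fold change ranged from -0.30 to 0.24 for MGST1, -0.19 to 0.25 for GSTO1, -0.55 to 0.15 for CYP4V2, -0.46 to 0.35 for UGT2B4, -0.58 to 0.24 for UGT2B15, -0.21 to 0.022 for CYP2R1, -0.15 to 1.00 for CYP1A1, -0.14 to 0.66 for CYP19A1, -0.069 to 0.78 for AHR, -0.051 to 0.39 for NR1I2 and -0.32 to 0.11 for NR1I3. Depth limits the 14 untested genes, which had at most 21 counts in a library.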
